A study of Cucurbita pepo with 23 samples.

Results

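Heat shock factors and protein chaperones were followed through nectary maturation in squash (*Cucurbita pepo*), as 138 of the 8861 genes in the table of normalized reads. A gene was a member where its melon description held one of these terms: heat shock, heat stress transcription factor, dnaJ, chaperonin, T-complex protein 1, BAG family, calreticulin, calnexin, protein disulfide, luminal-binding, chaperone protein Clp or peptidyl-prolyl. The rule read descriptions and no measured value. By role, the members were 41 dnaJ proteins, 30 peptidyl-prolyl isomerases, 13 genes of heat shock factors, 9 heat shock 70 kDa proteins, 9 protein disulfide isomerases, 7 BAG proteins, 7 subunits of T-complex protein 1 (TCP1), 7 small heat shock proteins, 4 Clp chaperones, 4 chaperonins of plastids and mitochondria, 3 calreticulin or calnexin genes, 2 heat shock 90 kDa proteins, 1 luminal-binding protein and 1 activator of the HSP90 ATPase. The 13 genes of heat shock factors include heat shock factor-binding protein 1, which is a regulator of the factors and not a factor. All 138 members reached a value of 50 in at least 3 libraries, 131 had no value of 0, and 127 carried an Arabidopsis identifier. A dnaJ 10-like pair and a dnaJ 16 pair are entries of a shared melon locus, and the 18.5 kDa small heat shock protein has 2 entries with consecutive identifiers, so reads could have been split between the entries of each pair.

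Nectaries, the tissue of the flower that makes nectar, were dissected by hand from female and male flowers of Crookneck Yellow Squash at 4 stages. The stages are named by hours from anthesis, with pre-secretory #1 at −24 hr, pre-secretory #2 at −15 hr, the secretory stage at 0 hr and the post-secretory stage at +9 hr. The sample records label the second of these −12 hr and the last +12 hr. Female nectaries gave 3 libraries at −24, 0 and +9 hr and 2 at −15 hr, and male nectaries gave 3 at each stage, 23 libraries in all. No group carried a mutation or transgene, and no heat or other treatment was described. The groups are labelled by sex and stage. Samples of −24 and 0 hr share a time of day, as do those of −15 and +9 hr, so in a step between neighbouring stages the stage and the time of day cannot be told apart. The comparisons of 0 with −24 hr and of +9 with −15 hr were taken at matched times of day. Nothing says that the libraries of a group came from different plants, and the p-values therefore measure only the spread between these libraries, which may be technical.

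Heat shock factors are transcription factors that bind heat shock elements in promoters and switch on chaperone genes when unfolded proteins accumulate. The chaperones then divide the work. Small heat shock proteins hold unfolding proteins in solution, HSP70 with its dnaJ partners refolds them, HSP90 matures signalling proteins, ClpB pulls aggregates apart, and TCP1 folds actin and tubulin in the cytosol. In the endoplasmic reticulum, luminal-binding protein (BiP), calnexin, calreticulin and protein disulfide isomerases fold proteins bound for secretion. In plants these genes also change in the course of development and of the day, without heat.

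Each library holds a value per gene, called normalized reads here, which was scaled by the upper quartile and rounded before deposit, so that a value of 10 is not 10 reads. Values summed to between 9269760 and 16139522 in a library, of which the members held 1.3 to 3.46%. The 5 nectary marker genes, a NEC1-like sugar transporter, a CWINV3-like cell wall invertase and 3 myb factors, summed to 591 to 1254 in the female −24 hr libraries. In the other groups before and at anthesis, these sums were 250937 to 413758 (female −15 hr), 360453 to 458358 (female 0 hr), 96244 to 207113 (male −24 hr), 468942 to 662041 (male −15 hr) and 444992 to 662420 (male 0 hr). In these other groups the NEC1-like transporter made up most of the sum, with group means of 101342 to 437939, against 173.7 in the female −24 hr libraries. The low sum of the female −24 hr libraries thus rests mainly on this gene, whose level also differed between stages. It cannot tell stage from the share of nectary tissue in a sample. Every result on that stage stands beside this difference, whose part in it was not tested. At +9 hr, the sums were 31254, 3347 and 2352 in female and 10858 to 41193 in male nectaries. Female +9 hr replicate 1 was closest, across genes, to the male +9 hr libraries and not to its own group. Both female −15 hr libraries and replicate 1 of female 0 hr, male −15 hr and male 0 hr were likewise closest to the other sex at their stage. At +9 hr, low values were also higher, with a 5th percentile of all genes of 28 to 62, against 9 to 23 at the other stages. In whole nectaries, fewer cells of a type and less RNA per cell cannot be told apart.

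A member was called higher or lower where the adjusted p of limma was under 0.05 and the change reached 2-fold on the log2 scale of value + 1, with p-values adjusted over all 8861 genes. At −15 against −24 hr in female nectaries, 17 members (12.3%) were higher and 35 (25.4%) lower, where 13.9% and 24% of all genes were. At 0 against −15 hr, 32 members (23.2%) were higher and 40 (29%) lower in female nectaries, against 20.5% and 31.1% of all genes. At +9 against 0 hr in female nectaries, 30 (21.7%) were higher and 38 (27.5%) lower, against 32% and 17.3% of all genes. The members' shares were near those of all genes in the first 2 steps, and in the last a smaller share of members was higher and a larger share lower. These splits moved with the scaling, since with equal totals per library 11 were higher and 54 lower at −15 against −24 hr (8.46% and 35.2% of all genes), and 48 higher and 24 lower at +9 against 0 hr (48.1% and 9.72% of all genes).

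In male nectaries, 1 member (0.725%) was higher and 3 (2.17%) lower at −15 than at −24 hr, against 1.57% and 3.7% of all genes, with 21 members at an unadjusted p under 0.05. That last count has no share of all genes beside it, and some members pass such a cutoff by chance alone. At 0 against −15 hr, 28 (20.3%) were higher and 35 (25.4%) lower, where 17.5% and 29.7% of all genes were. At +9 against 0 hr, 38 (27.5%) were higher and 25 (18.1%) lower, against 31.4% and 17.6% of all genes. The median log2 change of the members at 0 against −15 hr was −0.371 in female and −0.146 in male nectaries, beside −0.305 and −0.309 over all genes. At +9 against 0 hr, the medians were −0.022 in female and 0.134 in male nectaries, beside 0.336 and 0.29 over all genes. The male split of that step was 51 higher and 12 lower with equal totals per library (43.9% and 10.1% of all genes), and 32 and 32 with median-ratio scaling (27.4% and 21.8%).

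At matched times of day, 0 against −24 hr, 40 members were higher and 55 lower in female nectaries, against 25.6% and 38% of all genes. The male counts were 27 higher and 34 lower, against 17.5% and 31.1%. At +9 against −15 hr, 26 were higher and 41 lower in female nectaries (25.5% and 21.9% of all genes) and 31 and 34 in male nectaries (24.2% and 19.4%). With equal totals per library, the female counts were 32 and 70 for 0 against −24 hr (18.9% and 47.6% of all genes) and 37 and 24 for +9 against −15 hr (36.8% and 12.4%), and the male counts of the last were 41 and 26 (31.7% and 11.9%). With median-ratio scaling, the male counts for 0 against −24 hr were 43 and 26, where 23.3% and 23.6% of all genes were called.

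**Figure D1:**
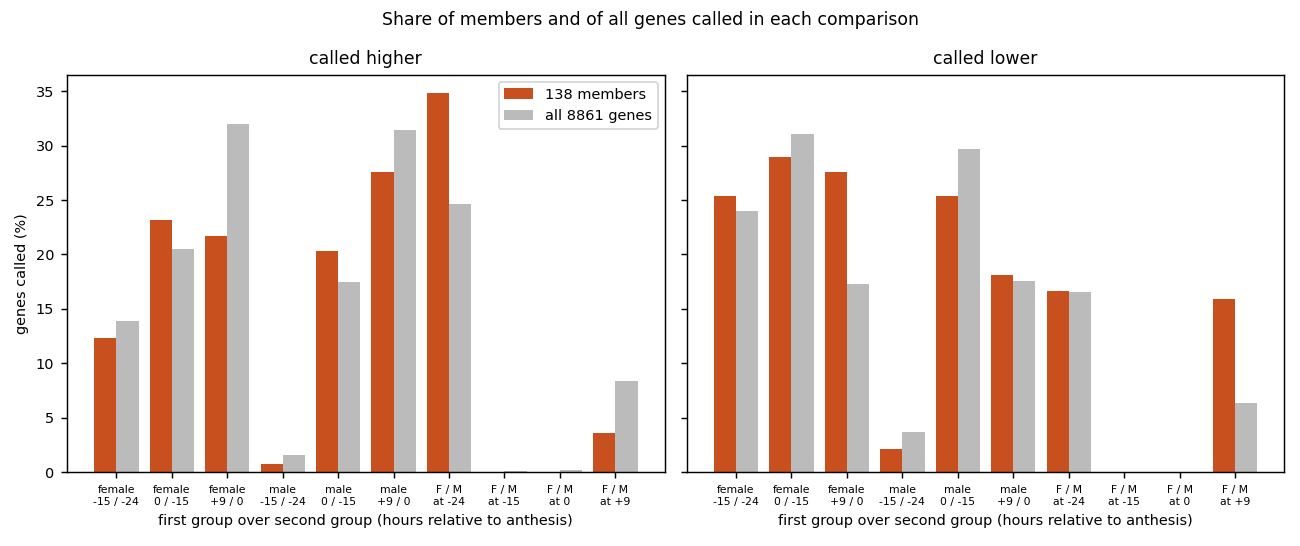
Share of the 138 members (orange) and of all 8861 genes (grey), in percent, called higher (left panel) or lower (right panel) in 10 comparisons of stages or sexes, with the first-named group over the second. For female +9 against 0 hr, 27.5% of members and 17.3% of all genes were lower, and for female against male nectaries at −15 and 0 hr the members' bars are at 0.

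Between −24 and −15 hr, 0 members were lower in both sexes (1.44% of all genes) and 1, the 15.4 kDa small heat shock protein, was called in opposite directions (0.598%). The sexes shared most calls at 0 against −15 hr, as they did over all genes. There, 26 members were higher in both (15.9% of all genes were) and 32 lower in both (25.4%), with 0 in opposite directions (0.0903%). The members' shares higher and lower in both lay near those of all genes. At +9 against 0 hr, 23 members were higher in both sexes (23.9% of all genes) and 20 lower in both (12.3%), and BAG regulator 6 was called in opposite directions. In female nectaries, 17 members were higher at 0 than at −15 hr and lower again at +9 hr, a pattern of 8.35% of all genes. In male nectaries 7 were, against 8.07%. The inverse pattern, lower at 0 hr and higher again at +9 hr, held 21 members in female and 20 in male nectaries, near the shares of all genes of 15.5% and 17.1%.

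Counts by role below stand beside the shares of all genes called higher and lower in the same step. At 0 against −15 hr these shares were 20.5% and 31.1% in female and 17.5% and 29.7% in male nectaries. At +9 against 0 hr they were 32% and 17.3% in female and 31.4% and 17.6% in male nectaries. For 0 against −24 hr they were 25.6% and 38% in female and 17.5% and 31.1% in male nectaries. For +9 against −15 hr they were 25.5% and 21.9% in female and 24.2% and 19.4% in male nectaries. For −15 against −24 hr they were 13.9% and 24% in female and 1.57% and 3.7% in male nectaries. Of the 13 genes of heat shock factors, 7 in female and 6 in male nectaries were higher at 0 than at −15 hr and 0 were lower, and the 6 male genes were all among the female 7. Their median log2 change was 2.06 in female and 1.32 in male nectaries. At the matched time of day, 8 in female and 4 in male nectaries were higher at 0 than at −24 hr, and 2 in female nectaries were lower. At +9 against −15 hr, 8 in female and 6 in male nectaries were higher and 0 were lower. In that comparison 6 were higher in both sexes, where 18.8% of all genes were.

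Heat stress transcription factor C-1-like (XM_008460129.1), of the class C factors, had the widest range. In female nectaries it was listed at 0 in all 3 libraries at −24 hr, then at 4 and 0 at −15 hr, at 2039, 2734 and 4134 at 0 hr, and at 669, 236 and 128 at +9 hr. In male nectaries it had 23, 8 and 1 at −24 hr, 6, 5 and 16 at −15 hr, 2235, 1107 and 907 at 0 hr, and 1012, 696 and 1001 at +9 hr. Before anthesis no library of either sex exceeded 23, and its 0 hr values did not overlap those of −15 hr. Its log2 change at 0 against −15 hr was 10.31 (SE 0.84, adjusted p = 1.4e-08) in female and 7.20 (SE 0.75, adjusted p = 2.6e-07) in male nectaries by limma. As the −15 hr values lie near the floor, these sizes depend on the 1 added before the log, and with a pseudocount of 10 they were 7.92 and 6.16, while leaving out 1 of the 2 female −15 hr libraries gave 9.15 or 11.48. It fell by 3.38 (SE 0.75, adjusted p = 6.8e-04) at +9 against 0 hr in female nectaries, and the male change of that step did not pass.

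HSF24 (XM_008442056.1), a class B factor, was higher at 0 than at −15 hr and higher again at +9 hr in both sexes. Its female values were 11, 21 and 61 at −24 hr, 116 and 54 at −15 hr, 661, 675 and 1405 at 0 hr, and 5383, 1519 and 2426 at +9 hr. Its male values were 72, 94 and 59 at −24 hr, 67, 112 and 96 at −15 hr, 708, 507 and 631 at 0 hr, and 1766, 2148 and 5473 at +9 hr. In both sexes, the 0 hr libraries lay above all earlier ones and the +9 hr libraries above all 0 hr ones. The log2 change at 0 against −15 hr was 3.42 (SE 0.61, adjusted p = 9.4e-05) in female and 2.75 (SE 0.54, adjusted p = 2.6e-04) in male nectaries. That of +9 against 0 hr was 1.66 (adjusted p = 0.0124) in female nectaries, lost without female +9 hr replicate 1 (adjusted p = 0.0789), and 2.17 (adjusted p = 0.00186) in male nectaries by limma. In female nectaries it was the 1 member called higher in both of these steps, against 3.66% of all genes.

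Factor A-6b (XM_008440394.1), of the class A activators, was called at different steps in the sexes. In female nectaries it had 4, 4 and 8 at −24 hr, 23 and 2 at −15 hr, 125, 355 and 417 at 0 hr, and 770, 201 and 367 at +9 hr. Its male values were 16, 49 and 67 at −24 hr, 20, 3 and 44 at −15 hr, 23, 40 and 13 at 0 hr, and 821, 1396 and 1513 at +9 hr. At 0 hr the female libraries lay above the male ones with no overlap, but the difference of 3.47 (SE 0.83, adjusted p = 0.064) did not pass. With a pseudocount of 10, 1 of the 13 genes of heat shock factors was called higher in female nectaries at 0 hr, against 0 as fitted here. The study's own test listed A-6b among the top genes higher in female nectaries at that stage. The log2 change was 4.97 (SE 0.93, adjusted p = 1.6e-04) at 0 against −15 hr in female nectaries, and 5.65 (SE 0.83, adjusted p = 1.1e-05) at +9 against 0 hr in male nectaries. For 0 against −15 hr, the change did not pass as different between the sexes (4.35, SE 1.25, adjusted p = 0.341). The female step from 0 to +9 hr differed from the male one by −5.11 on the log2 scale.

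Factor A-2d-like (XM_008451146.1), whose Arabidopsis relative HSFA2 sustains the heat response, was high in the female −24 hr libraries. These had 934, 1332 and 2235, followed by 13 and 11 at −15 hr, 403, 474 and 322 at 0 hr, and 518, 166 and 710 at +9 hr. Male nectaries had 77, 23 and 13 at −24 hr, 8, 12 and 20 at −15 hr, 85, 83 and 115 at 0 hr, and 1348, 83 and 284 at +9 hr. All female −24 hr values exceeded all male ones at that stage, and both sexes had their lowest stage mean at −15 hr. It was higher by 4.93 (SE 0.84, adjusted p = 6.0e-05) in female and 2.80 (SE 0.75, adjusted p = 0.00334) in male nectaries at 0 against −15 hr by limma. At −15 against −24 hr, the female change was −6.76 (SE 0.84, adjusted p = 4.5e-06).

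Of the remaining factors called at 0 against −15 hr, B-2b (XM_008438999.1), of the repressor class B, had 718, 833 and 1092 at 0 hr in female nectaries, against 293 and 146 at −15 hr. Its male values were 817, 568 and 642 at 0 hr, against 195, 274 and 229 at −15 hr. The log2 changes were 2.06 (adjusted p = 2.1e-04) and 1.53 (adjusted p = 0.00113). A-5 (XM_008440093.1) was higher by 2.19 in female and 1.78 in male nectaries, and by 3.03 and 2.38 at +9 against −15 hr. In male nectaries A-5 was also called lower at −15 than at −24 hr. B-3 (XM_008462532.1), listed at 0 in each female −24 hr library, had 163, 90 and 193 at 0 hr in female and 89, 53 and 30 in male nectaries, and its male change at 0 against −15 hr was lost without the first replicate of −15 or of 0 hr (adjusted p of at most 0.0679).

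The others moved less. B-2b-like (XM_008440968.1) was higher at +9 than at 0 hr by 1.55 in female nectaries (adjusted p = 6.2e-04), with 1321, 2265 and 1769 at +9 hr, against 618, 662 and 512 at 0 hr. A-3 (XM_008467294.1) had a wide spread at +9 hr, with 1705, 449 and 95 in female and 69, 193 and 1207 in male nectaries, and did not pass in a step between neighbouring stages. A-4c-like (XM_008441490.1) and A-4c (XM_008445324.1) were lower in female than in male nectaries at −24 hr and called in no comparison of stages, and A-8 (XM_008466471.1) was called in 0 of 14 comparisons, with values of 287 to 591. Heat shock factor-binding protein 1 (XM_008453380.1), known for binding trimers of the factors, fell by 1.07 at 0 against −24 hr in female nectaries (adjusted p = 0.00567), where the groups overlapped, a call lost with median-ratio scaling and without female −24 hr replicate 1 or 2 or 0 hr replicate 1 (adjusted p of at most 0.0615).

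**Figure D2:**
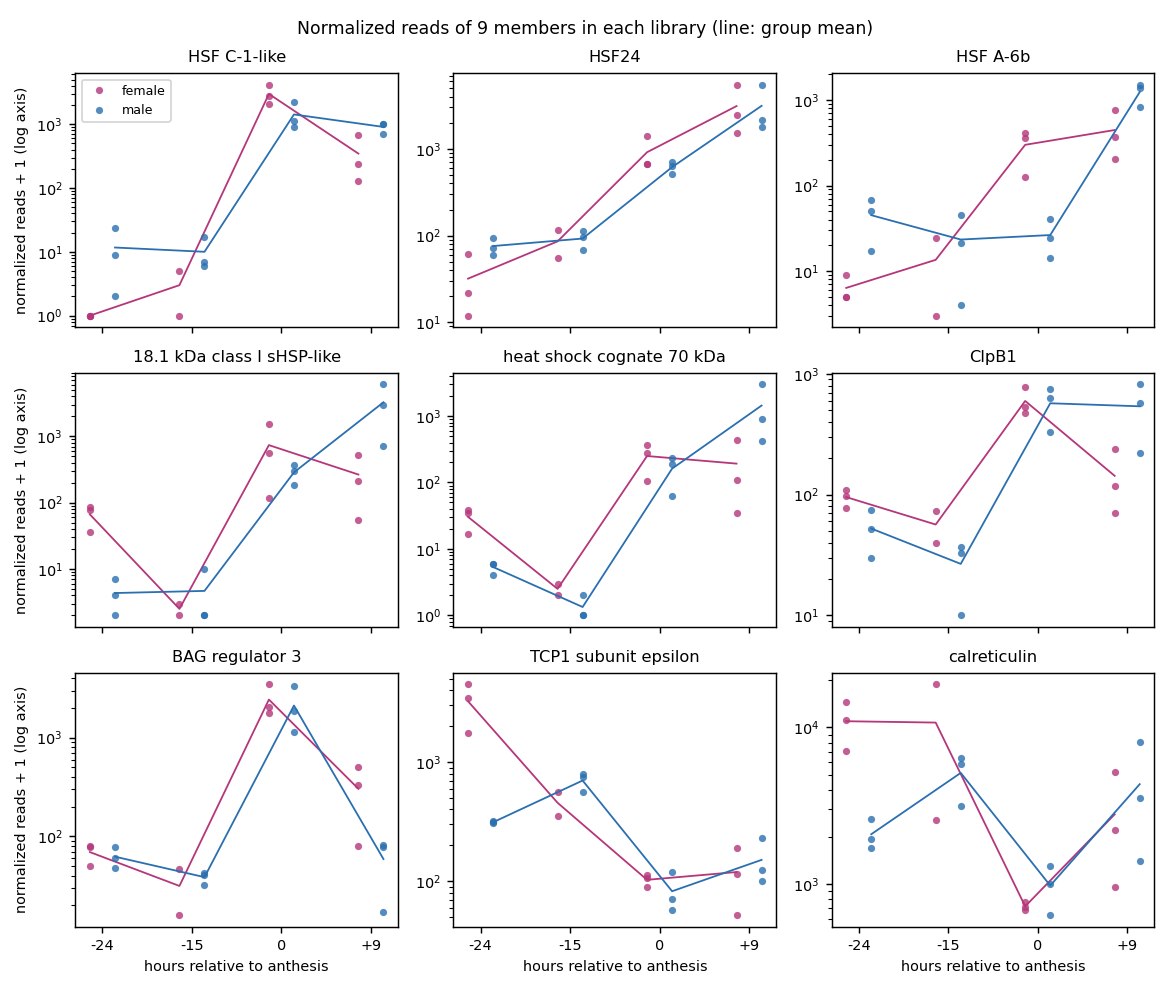
Normalized reads + 1 (log axis) of 9 members in each library (points) by stage, −24 to +9 hr from anthesis, with female nectaries left and male nectaries right at each stage, and the group mean as a line. C-1-like, the 18.1 kDa protein, HSC70, ClpB1 and BAG3 are low at −15 hr and higher at 0 hr in both sexes, while TCP1 epsilon and calreticulin are lower at 0 hr, and A-6b reaches 821 to 1513 in male nectaries only at +9 hr.

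Small heat shock proteins, holdases that are targets of the factors under heat, were higher at 0 than at −15 hr for 6 of 7 members in both sexes, the same 6 genes, with 0 lower. Their median log2 change was 4.69 in female and 3.58 in male nectaries. The 17.8 kDa gene was listed at 0 in every −15 hr library, so that its own value depends on the 1 added before the log; wherever it is placed, the medians lie between 3.73 and 4.69 in female and between 3.14 and 3.61 in male nectaries. At the matched time of day, 6 were higher at 0 than at −24 hr in female nectaries, and 5 were higher and 1 lower in male nectaries. Their sum per library was 273 to 320 at −24 hr, 734 and 881 at −15 hr, 2318 to 6869 at 0 hr and 1059 to 19468 at +9 hr in female nectaries. In male nectaries it was 1334 to 2211 at −24 hr, 558 to 701 at −15 hr, 2052 to 3533 at 0 hr and 2596 to 10430 at +9 hr, so that the −24 and 0 hr libraries overlapped.

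Markers of other cell types also moved between −15 and 0 hr. Of the 12 green tissue markers, chlorophyll a-b binding proteins, 9 in female and 8 in male nectaries were higher at 0 than at −15 hr and 0 were lower. From −24 to −15 hr, 4 of these markers were lower and 1 higher in female nectaries, and 8 were lower in male nectaries. They summed to 6634 to 7597 at 0 hr in female nectaries, against 145 and 1732 at −15 hr, and to 1548 to 5650 in male nectaries, against 117 to 236. Of the 3 phloem markers, 3 in female and 1 in male nectaries were higher, with sums of 894 to 1639 at 0 hr in female nectaries, against 223 and 261 at −15 hr, and of 632 to 848 in male nectaries, against 264 to 324. Of these markers 0 were at 0 throughout a group, and of the 4 pollen and anther markers 0 were called. Their part in the changes of the factors and chaperones in that step was not tested. Stage and time of day cannot be told apart in that step for these markers either.

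The 18.1 kDa class I protein XM_008450453.1 had 84, 77 and 35 at −24 hr, 1 and 2 at −15 hr, 565, 116 and 1525 at 0 hr, and 530, 209 and 53 at +9 hr in female nectaries. In male nectaries it had 3, 6 and 1 at −24 hr, 9, 1 and 1 at −15 hr, 370, 301 and 184 at 0 hr, and 716, 3008 and 6046 at +9 hr. The −15 hr libraries of both sexes were near the floor and all 0 hr libraries were above them. The log2 change at 0 against −15 hr was 7.57 (SE 1.05, adjusted p = 6.7e-06) in female and 6.33 (SE 0.94, adjusted p = 1.4e-05) in male nectaries. The change at +9 against 0 hr passed in male nectaries only, where it was 3.10 (SE 0.94, adjusted p = 0.00746).

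The chloroplastic small heat shock protein (XM_008450630.1), which protects photosynthetic membranes, had 392, 160 and 792 at 0 hr in female nectaries, against 5 and 3 at −15 hr. Its male values were 382, 276 and 114 at 0 hr, against 7, 0 and 0 at −15 hr. The log2 changes were 6.23 (SE 1.01, adjusted p = 3.6e-05) and 6.85 (SE 0.90, adjusted p = 3.6e-06), and 4.77 and 4.33 with a pseudocount of 10. Groups did not overlap in either sex. At +9 hr it had 321, 214 and 33 in female and 280, 963 and 1743 in male nectaries, and neither sex passed in that step.

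For both entries of the 18.5 kDa class I protein the direction of each call was the same. XM_008459197.1 had 305, 86 and 937 at 0 hr in female nectaries, against 20 and 22 at −15 hr, a log2 change of 3.73 (adjusted p = 1.4e-04). Its male values were 267, 240 and 211 at 0 hr, against 26, 20 and 34 at −15 hr, a change of 3.14 (adjusted p = 2.6e-04). It fell by 2.21 at +9 against 0 hr in female nectaries (adjusted p = 0.00441), where the groups overlapped, with 143, 69 and 24 at +9 hr. XM_008459198.1 fell by 2.37 in that step (adjusted p = 0.00537), a call lost without female 0 hr replicate 3 (adjusted p = 0.0542).

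The second 18.1 kDa class I protein (XM_008444272.1) had 2652, 1565 and 2644 at 0 hr in female nectaries, against 310 and 23 at −15 hr, a log2 change of 4.69 that was lost without female −15 hr replicate 3 (adjusted p = 0.0731). At +9 hr, its female values were 2638, 18269 and 718, of which that of replicate 2 is the highest value of the 7 small heat shock proteins. Its male change of 2.93 at 0 against −15 hr was lost without the first replicate of −15 or of 0 hr (adjusted p of at most 0.0639). The 17.8 kDa class I protein (XM_008443199.1) was listed at 0 in all −15 hr libraries of both sexes and had 19, 65 and 219 at 0 hr in female and 4, 8 and 37 in male nectaries, of which the male call was lost with a pseudocount of 10 (adjusted p = 0.114). The 15.4 kDa class V protein (XM_008442954.1) followed another course. It had 36, 52 and 142 at −24 hr and 387 and 805 at −15 hr in female nectaries, and 1531, 1572 and 1169 at −24 hr and 427, 326 and 406 at −15 hr in male nectaries. It was thus higher at −15 than at −24 hr in female nectaries (3.09, adjusted p = 7.1e-05) and lower in male nectaries (−1.88, adjusted p = 0.0151, lost without male −24 hr replicate 1 or 2 or −15 hr replicate 2, adjusted p of at most 0.0767).

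Of the 9 heat shock 70 kDa proteins, the ATP-driven refolding chaperones of several compartments, 1 was higher and 1 lower at 0 than at −15 hr in female nectaries and 2 were higher in male nectaries. In the step to +9 hr, 1 was higher and 5 lower in female nectaries (median −1.56), and 2 were higher and 2 lower in male nectaries (median −0.279). The gene with the widest change was the heat shock cognate 70 kDa protein XM_008460670.1. In female nectaries it had 38, 16 and 34 at −24 hr, 1 and 2 at −15 hr, 279, 105 and 364 at 0 hr, and 432, 108 and 34 at +9 hr. Its values in male nectaries were 5, 5 and 3 at −24 hr, 0, 1 and 0 at −15 hr, 232, 188 and 62 at 0 hr, and 416, 911 and 2991 at +9 hr. All its −15 hr values were below those of every other stage in both sexes. The log2 change at 0 against −15 hr was 6.50 (SE 0.89, adjusted p = 5.9e-06) in female and 6.80 (SE 0.80, adjusted p = 9.1e-07) in male nectaries, and 4.33 and 3.87 with a pseudocount of 10.

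The abundant HSP70 members did not share that course. The following were chosen after their values were seen, apart from heat shock 70 kDa protein 8. Heat shock cognate 70 kDa protein 2-like (XM_008460684.1) had 14131, 5137 and 2255 at +9 hr in female nectaries, against 26479, 20355 and 44391 at 0 hr, a fall by 2.40 (SE 0.52, adjusted p = 5.2e-04). The chloroplast stromal HSP70 (XM_008458921.1), which takes part in protein import, fell by 2.18 in the same step (adjusted p = 0.00137), and mitochondrial HSP70 (XM_008456224.1) by 1.56 in female (adjusted p = 0.00147) and 1.42 in male nectaries (adjusted p = 0.00312). Heat shock 70 kDa protein 8 (XM_008440460.1) went the other way. It had 127, 205 and 124 at +9 hr in female nectaries, against 31, 46 and 38 at 0 hr, and 512, 418 and 596 at +9 hr in male nectaries, against 23, 25 and 28 at 0 hr. Its log2 change was 1.94 (SE 0.34, adjusted p = 6.6e-05) in female and 4.26 (SE 0.34, adjusted p = 7.1e-09) in male nectaries, with no overlap in either sex.

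The 41 dnaJ proteins, which load HSP70 with its clients and set off its ATPase, were the largest group. At 0 against −15 hr, 12 were higher and 4 lower in female and 9 and 3 in male nectaries, of which 9 were higher and 3 lower in both. For +9 against 0 hr, 3 were higher and 14 lower in female and 5 and 13 in male nectaries, with 9 lower in both. With equal totals per library, this split was 6 higher and 9 lower in female and 7 and 6 in male nectaries, where 48.1% and 9.72% of all genes were called in female and 43.9% and 10.1% in male nectaries. The chloroplastic dnaJ 20-like entry XM_008457310.1 was near or at 0 before anthesis, with 3 and 0 at −15 hr in female nectaries and 0 in all male libraries of that stage. At 0 hr it had 480, 588 and 802 in female and 280, 212 and 194 in male nectaries. The female log2 change was 8.25 (SE 1.11, adjusted p = 4.9e-06), and the male call passed at an adjusted p of 2.3e-06. At +9 hr it had 433, 5 and 74 in female nectaries, a fall by 3.40 from 0 hr, lost without replicate 2 of +9 hr (adjusted p = 0.0503).

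DnaJ homolog subfamily C member 28 (XM_008444543.1) had a narrow spread. It had 690, 546 and 689 at 0 hr in female nectaries, against 10 and 15 at −15 hr, and 594, 449 and 375 in male nectaries, against 31, 20 and 16. The log2 changes were 5.59 (SE 0.43, adjusted p = 7.1e-09) and 4.37 (SE 0.38, adjusted p = 3.0e-08), and at +9 against 0 hr it fell by 2.72 and 2.01. In male nectaries it was also called lower at −15 than at −24 hr. Chloroplastic dnaJ 8 (XM_008466913.1) was the only member higher at −15 than at −24 hr in both sexes, where 0.779% of all genes were. It had 3600 and 1745 at −15 hr in female nectaries, against 36, 53 and 124 at −24 hr, and 2265, 4472 and 2617 in male nectaries, against 621, 303 and 526. It fell by 4.09 (adjusted p = 3.0e-06) in female and 5.32 (adjusted p = 9.2e-08) in male nectaries at +9 against 0 hr, with values of 722, 199 and 125 and of 86, 156 and 159 at +9 hr.

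Of the next 3 dnaJ genes, chosen after their values were seen, dnaJ 11 (XM_008442601.1) had 1220, 2922 and 5424 at 0 hr in female nectaries, against 82 and 69 at −15 hr, while male nectaries had 1154, 378 and 244 at 0 hr and 3792, 8524 and 5009 at +9 hr. DnaJ 72 (XM_008443823.1) had 2549, 2149 and 3534 at 0 hr in female nectaries, against 290 and 186 at −15 hr, and its male values were 2192, 2028 and 1609, against 428, 426 and 248. DnaJ homolog subfamily B member 8 (XM_008455626.1) was lower at 0 than at −15 hr by 2.73 in female and 3.02 in male nectaries, and higher again at +9 than at 0 hr by 2.35 and 3.56. The dnaJ C member 2-like gene (XM_008457825.1), whose animal relative acts at the ribosome, fell by 2.86 in both sexes at +9 against 0 hr (adjusted p of 4.7e-06 and 3.5e-06). The 3 members with the lowest coefficient of variation were also dnaJ genes, namely dnaJ 49-like (XM_008445794.1), dnaJ 10 (XM_008454824.1) and C member 21 (XM_008455045.1), with values of 283 to 555, 394 to 703 and 267 to 413 over the 23 libraries.

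BAG proteins bind HSP70 and help it to release its clients. Of the 7, 1 was higher and 2 lower at 0 than at −15 hr in female nectaries, and 1 was higher and 3 lower in male nectaries. BAG regulator 3 (XM_008468993.1) had 77, 79 and 49 at −24 hr, 46 and 15 at −15 hr, 3481, 1784 and 2024 at 0 hr, and 501, 79 and 327 at +9 hr in female nectaries. Male nectaries had 77, 47 and 60 at −24 hr, 42, 31 and 40 at −15 hr, 3343, 1860 and 1135 at 0 hr, and 81, 16 and 77 at +9 hr. The 0 hr libraries lay above those of all other stages in both sexes. The log2 change at 0 against −15 hr was 6.41 (SE 0.70, adjusted p = 4.9e-07) in female and 5.65 (SE 0.63, adjusted p = 5.5e-07) in male nectaries. It fell by 3.30 (adjusted p = 1.7e-04) and 5.33 (adjusted p = 7.7e-07) at +9 against 0 hr.

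BAG regulator 2-like (XM_008460629.1) ran the opposite course. It had 3, 2 and 10 at 0 hr in female nectaries, against 301 and 156 at −15 hr, and 0, 3 and 5 in male nectaries, against 154, 145 and 99. The log2 change at 0 against −15 hr was −5.42 (SE 0.85, adjusted p = 2.6e-05) in female and −5.51 (SE 0.76, adjusted p = 6.2e-06) in male nectaries, and −3.96 and −3.49 with a pseudocount of 10. It was higher by 3.37 and 3.96 at +9 against 0 hr (2.14 and 2.13 with that pseudocount), and its 0 hr values lay below those of every other stage in both sexes. BAG regulator 7 (XM_008457003.1), which in Arabidopsis sits in the endoplasmic reticulum, was lower at 0 than at −15 hr by 2.38 in female and 2.32 in male nectaries. BAG regulator 8 (XM_008461153.1) was higher at +9 than at 0 hr by 2.13 and 2.42.

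BAG regulator 6 (XM_008459935.1), a calmodulin-binding BAG protein in Arabidopsis, had 474, 680 and 600 at −24 hr, 11281 and 11177 at −15 hr, 5005, 4683 and 7879 at 0 hr, and 6274, 1494 and 1284 at +9 hr in female nectaries. Male nectaries had 7027, 7730 and 7218 at −24 hr, 10104, 4973 and 8023 at −15 hr, 4537, 4482 and 4312 at 0 hr, and 7885, 12266 and 31551 at +9 hr. The female −24 hr libraries were below all others, and at +9 hr all male libraries exceeded all female ones. Its log2 change at +9 against 0 hr was −1.31 (adjusted p = 0.0232) in female and 1.71 (adjusted p = 0.00459) in male nectaries, the only pair of opposite calls in that step (0.226% of all genes). The female call was lost without replicate 2 or 3 of +9 hr or replicate 3 of 0 hr and with equal totals per library (adjusted p of at most 0.21), and its groups overlapped. BAG regulator 1-like (XM_008440949.1) was lower in the female −24 hr libraries, with 338, 504 and 838, than in any other library, and BAG regulator 4 (XM_008466045.1) was called in 0 comparisons.

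Both heat shock 90 kDa proteins, which mature kinases and receptors, were lower at +9 than at 0 hr in both sexes. HSP83 (XM_008467890.1) had 500, 54 and 214 at +9 hr in female nectaries, against 1752, 1902 and 1998 at 0 hr, and 549, 402 and 771 in male nectaries, against 2222, 2192 and 1852. The log2 change was −3.38 (SE 0.51, adjusted p = 1.7e-05) in female and −1.91 (SE 0.51, adjusted p = 0.00321) in male nectaries, with no overlap. HSP90-2 (XM_008468798.1) had 3084, 1259 and 868 at +9 hr in female nectaries, against 6611, 4684 and 10186 at 0 hr, a change of −2.18 (SE 0.45, adjusted p = 3.8e-04). Its male change of −1.14 (adjusted p = 0.035) was lost without replicate 2 or 3 of +9 hr or any replicate of 0 hr, and with equal totals per library (adjusted p of at most 0.26). The activator of the HSP90 ATPase (XM_008444809.1) was called only against the female −24 hr libraries, which had 1176, 975 and 538, against 357 and 169 at −15 hr.

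Among the Clp chaperones, ClpB1 (XM_008450477.1), the cytosolic disaggregase also known as HSP101, had 784, 474 and 528 at 0 hr in female nectaries, against 39 and 72 at −15 hr. Male nectaries had 752, 628 and 329 at 0 hr, against 32, 9 and 36 at −15 hr. The log2 change was 3.43 (SE 0.62, adjusted p = 1.1e-04) in female and 4.55 (SE 0.55, adjusted p = 1.5e-06) in male nectaries. It fell by 2.21 at +9 against 0 hr in female nectaries (adjusted p = 0.00192), with 239, 117 and 70, while male nectaries had 222, 575 and 816 and did not pass in that step.

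Mitochondrial ClpB4 (XM_008454640.1) was lowest at 0 hr. It had 254, 220 and 175 at 0 hr in female nectaries, against 432 and 554 at −15 hr, and 236, 249 and 247 in male nectaries, against 339, 553 and 753, changes of −1.19 and −1.09 that were lost with median-ratio scaling, the male one also without −15 hr replicate 3. From there, at +9 against 0 hr, it was higher by 2.32 (SE 0.27, adjusted p = 9.7e-07) in female and 3.16 (SE 0.27, adjusted p = 1.5e-08) in male nectaries, with 839, 1665 and 886 and with 2389, 2088 and 2101 at +9 hr. Chloroplastic ClpB3 (XM_008451928.1) was higher at +9 than at 0 hr in male nectaries only (1.41, adjusted p = 0.00377), a call lost without replicate 3 of +9 hr, where the change was 0.97. ClpD (XM_008449580.1), chosen after its values were seen, is a plastid chaperone linked to dehydration in Arabidopsis. In the last step it was higher by 2.21 in male nectaries (adjusted p = 1.2e-04), with 4477, 14128 and 13247, against 2044, 2464 and 1667 at 0 hr.

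TCP1 is the ring-shaped chaperonin of the cytosol, with a set of different subunits. All 7 measured subunits were lower at 0 than at −15 hr in both sexes, with a median log2 change of −2.75 in female and −2.54 in male nectaries. The same 7 were lower at 0 than at −24 hr in both sexes (24.7% of all genes), at the matched time of day, by a median of −4.88 in female and −2.01 in male nectaries. In female nectaries all 7 were also lower at −15 than at −24 hr (median −2.76), a step in which male nectaries had 0 calls (median 0.428). With median-ratio scaling, 6 of the 7 remained lower at 0 than at −15 hr in male nectaries.

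The subunits named here were chosen after their values were seen. Subunit epsilon (XM_008446179.1) had 4515, 3460 and 1746 at −24 hr, 353 and 556 at −15 hr, 88, 106 and 111 at 0 hr, and 114, 51 and 190 at +9 hr in female nectaries. In male nectaries it had 305, 313 and 317 at −24 hr, 754, 556 and 788 at −15 hr, 56, 70 and 118 at 0 hr, and 228, 99 and 123 at +9 hr. The female −24 hr libraries lay above all others, and no library of 0 hr reached the lowest of −15 hr in either sex. The change at 0 against −15 hr was −2.12 (SE 0.47, adjusted p = 7.4e-04) in female and −3.14 (SE 0.42, adjusted p = 4.4e-06) in male nectaries. Subunit zeta (XM_008461245.1) had 81, 61 and 63 at 0 hr in female nectaries, against 458 and 481 at −15 hr, and 73, 90 and 112 in male nectaries, against 489, 468 and 528. Its change was −2.77 (SE 0.33, adjusted p = 1.3e-06) and −2.44 (SE 0.30, adjusted p = 1.5e-06). Subunit eta (XM_008452848.1), near the floor at 0 hr with 7 to 10 in all 6 libraries, was higher again at +9 hr by 2.64 in female and 1.94 in male nectaries. In all, 4 subunits in female and 2 in male nectaries were higher at +9 than at 0 hr, and 3 were lower at +9 than at −15 hr in both sexes (14.7% of all genes).

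The 4 chaperonins of the organelles, which fold imported proteins, were lower at 0 than at −15 hr for 3 in female and 2 in male nectaries. Mitochondrial CPN60-2 (XM_008462479.1), chosen after its values were seen, had 75, 251 and 325 at 0 hr in female nectaries, against 1738 and 1284 at −15 hr, and 147, 225 and 287 in male nectaries, against 1318, 465 and 614. Its change was −3.02 (adjusted p = 3.0e-04) in female and −1.76 (adjusted p = 0.00878) in male nectaries, and at +9 hr it was lower still, by 1.56 and 1.77, though the female groups overlapped, with 81, 36 and 79 in female and 62, 48 and 78 in male nectaries.

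**Figure D3:**
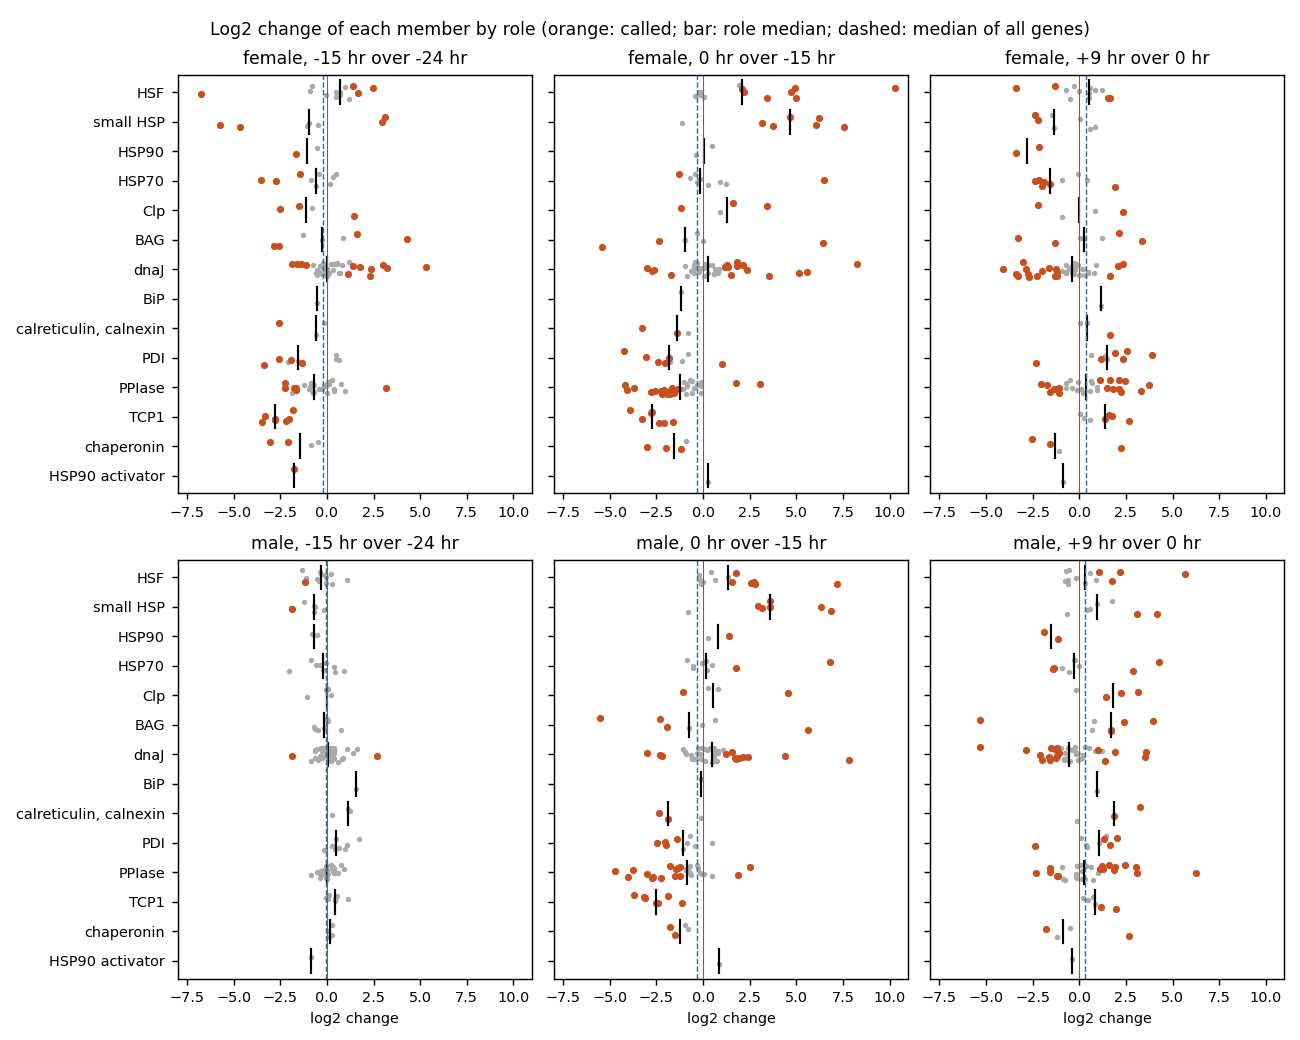
Log2 change on the scale of value + 1 of each member (points) by role, in 6 panels for −15 against −24, 0 against −15 and +9 against 0 hr in female and male nectaries, with members called in orange, the role median as a bar and the median of all genes as a dashed line. At 0 against −15 hr the small heat shock proteins lie highest, with medians of 4.69 (female) and 3.58 (male), and the TCP1 subunits lowest, with −2.75 and −2.54.

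In the endoplasmic reticulum, the 3 genes of calreticulin and calnexin, which bind sugar chains on folding glycoproteins, had 0 higher and 2 lower at 0 than at −15 hr in both sexes. Calreticulin (XM_008455449.1) had 14606, 11164 and 7105 at −24 hr, 18916 and 2567 at −15 hr, 680, 764 and 707 at 0 hr, and 947, 2221 and 5173 at +9 hr in female nectaries. In male nectaries it had 2594, 1943 and 1688 at −24 hr, 3154, 5861 and 6351 at −15 hr, 631, 994 and 1296 at 0 hr, and 8101, 3516 and 1391 at +9 hr. All 0 hr libraries lay below all earlier ones in both sexes, whereas the +9 hr libraries of each sex spread widely. The log2 change at 0 against −15 hr was −3.28 (SE 0.74, adjusted p = 7.9e-04) in female nectaries, lost without female −15 hr replicate 1 (adjusted p = 0.0571), and −2.39 (SE 0.66, adjusted p = 0.00412) in male nectaries. At 0 against −24 hr, it was −3.87 (adjusted p = 2.6e-05) in female nectaries.

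Calreticulin-3 (XM_008455899.1), which in Arabidopsis takes part in quality control of receptors, had 702, 747 and 655 at +9 hr in male nectaries, against 54, 78 and 94 at 0 hr. That is a change of 3.24 (SE 0.47, adjusted p = 9.6e-06), and the female libraries of +9 hr, with 179, 89 and 193, overlapped those of 0 hr, with 36, 134 and 270. Calnexin (XM_008441969.1) and BiP (luminal-binding protein 5, XM_008439177.1), the HSP70 of this compartment, did not pass in a step between neighbouring stages. BiP had 20553 and 2309 in the 2 female −15 hr libraries, 22608, 7210 and 2806 at +9 hr in male nectaries and 3939, 5374 and 14679 at +9 hr in female nectaries, a wide spread within these groups.

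Of the 9 protein disulfide isomerases, which form and rearrange disulfide bonds, 1 was higher and 5 lower at 0 than at −15 hr in female nectaries and 4 were lower in male nectaries, with 3 lower in both. For +9 against 0 hr, 5 were higher and 1 lower in female and 3 and 1 in male nectaries. The 1-4 like gene XM_008468824.1 had 2127, 1476 and 1004 at −24 hr, 475 and 128 at −15 hr, 5, 14 and 24 at 0 hr, and 108, 108 and 596 at +9 hr in female nectaries. Male nectaries had 118, 85 and 46 at −24 hr, 137, 163 and 152 at −15 hr, 22, 21 and 39 at 0 hr, and 256, 27 and 23 at +9 hr. Its change at 0 against −15 hr was −4.24 (SE 0.89, adjusted p = 4.3e-04) in female and −2.47 (SE 0.79, adjusted p = 0.0113) in male nectaries, with no overlap. The 5-4-like gene (XM_008456313.1) went against the group at +9 hr. It had 369, 236 and 304 at +9 hr in female nectaries, against 1583, 1146 and 1809 at 0 hr, and 171, 311 and 260 in male nectaries, against 1321, 1074 and 1347, changes of −2.31 (adjusted p = 2.4e-05) and −2.37 (adjusted p = 1.6e-05).

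The 30 peptidyl-prolyl isomerases, which are cyclophilins, FKBPs and parvulins, turn proline bonds. For 0 against −15 hr, 2 were higher and 15 lower in female and 2 and 13 in male nectaries, of which 2 and 12 were the same genes. In the last step, +9 against 0 hr, 10 were higher and 7 lower in female and 10 and 5 in male nectaries, with 8 and 4 in both. Shares of all genes in that step were 32% and 17.3% in female and 31.4% and 17.6% in male nectaries. The isomerase counts higher in each sex and lower in male nectaries lay near these shares. Isomerase 8 (XM_008453068.1) had 37, 57 and 68 at 0 hr in female nectaries, against 1251 and 648 at −15 hr, and 36, 52 and 55 in male nectaries, against 708, 714 and 536. Its change was −4.08 (SE 0.34, adjusted p = 1.7e-08) in female and −3.76 (SE 0.30, adjusted p = 1.2e-08) in male nectaries. In both sexes all 0 hr values were below every value of the earlier stages.

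CYP37 (XM_008454056.1), a cyclophilin of the chloroplast, had 3, 11 and 5 at 0 hr in female nectaries, against 95 and 145 at −15 hr, and 3, 1 and 3 in male nectaries, against 97, 24 and 58. The changes were −4.16 (adjusted p = 1.3e-04) and −4.05 (adjusted p = 5.7e-05), to values near the floor, and with a pseudocount of 10 the male one was −2.35. CYP20-1-like (XM_008465015.1) was lower at 0 than at −15 hr by 3.71 in female and 3.00 in male nectaries and higher at +9 than at 0 hr by 3.31 (adjusted p = 2.5e-06) and 2.44 (adjusted p = 5.2e-05). FKBP17-2 (XM_008465878.1), of the thylakoid lumen family, had 844, 1495 and 755 at +9 hr in male nectaries, against 23, 4 and 16 at 0 hr, a change of 6.28 (SE 0.63, adjusted p = 1.1e-07), and 247, 297 and 259 in female nectaries, against 20, 147 and 35, a change of 2.47 (adjusted p = 0.00212).

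The 2 isomerases that were higher at 0 than at −15 hr in both sexes, named after their values were seen, were FKBP4 and the 70 kDa isomerase-like gene. The large FKBPs of plants are partners of HSP90. FKBP4 (XM_008458087.1) had 667, 509 and 763 at 0 hr in female nectaries, against 86 and 69 at −15 hr, and 574, 425 and 368 in male nectaries, against 175, 76 and 139. The changes were 3.03 (adjusted p = 6.1e-06) and 1.86 (adjusted p = 3.0e-04). The 70 kDa isomerase-like gene (XM_008440830.1) was higher by 1.74 in female (adjusted p = 0.00801) and 2.54 in male nectaries (adjusted p = 1.5e-04).

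Between the sexes, female and male nectaries differed at −24 and +9 hr. At −24 hr, 48 members were higher and 23 lower in female nectaries, against 24.6% and 16.6% of all genes, in the stage where the female libraries had low nectary markers. By role, 7 of 7 TCP1 subunits, 6 of 9 protein disulfide isomerases, 3 of 3 calreticulin and calnexin genes, BiP and 13 of 30 peptidyl-prolyl isomerases were higher in female nectaries, while 7 of 13 genes of heat shock factors and 10 of 41 dnaJ genes were lower. TCP1 epsilon, with 1746 to 4515 in female and 305 to 317 in male libraries, differed by 3.27 (SE 0.42, adjusted p = 3.8e-06). BiP had 14330, 11234 and 6062 in female and 1777, 1398 and 1205 in male nectaries, a difference of 2.78 (SE 0.69, adjusted p = 0.00215). The 2 sexes did not overlap in either gene.

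At −15 hr, 0 members were called between the sexes (0.0903% of all genes were higher and 0.0451% lower in female nectaries), with 4 members at an unadjusted p under 0.05 by limma. At 0 hr, 0 were called as well (0.181% and 0.0677% of all genes), with 15 at an unadjusted p under 0.05, and 5 were higher in female nectaries without female 0 hr replicate 1, which was closest to the male 0 hr libraries. The counts at an unadjusted p have no share of all genes beside them, so they do not set the members apart. At +9 hr, 5 members were higher and 22 lower in female nectaries, against 8.36% and 6.36% of all genes. The lower ones held 3 of 7 small heat shock proteins, 4 of 9 HSP70 members, 3 of 4 Clp chaperones, 1 of 2 HSP90 members, 4 peptidyl-prolyl isomerases and 4 dnaJ genes. ClpB4 and calreticulin-3 were among them, and BAG regulator 6 had 6274, 1494 and 1284 in female nectaries, against 7885, 12266 and 31551 in male nectaries, a difference of −2.66 (SE 0.48, adjusted p = 0.00124).

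The 18.1 kDa protein XM_008450453.1 differed at +9 hr by −3.69 (SE 0.94, adjusted p = 0.00991) and HSC70 (XM_008460670.1) by −3.14 (SE 0.80, adjusted p = 0.00977). Both calls were lost without female +9 hr replicate 3 or male +9 hr replicate 3, with an adjusted p of at most 0.0618 and 0.0636. Without female replicate 3, 5 members were lower in female nectaries, and without female replicate 2 or male replicate 3, 13 and 11 were. Without female replicate 1, the library that resembled the male ones, 27 were. BAG regulator 3 was higher in female nectaries, by 2.31 (adjusted p = 0.0151), and B-3 by 2.73 (adjusted p = 0.0232), calls that were lost without female +9 hr replicate 3 or male +9 hr replicate 2, and for B-3 also without male +9 hr replicate 3 (adjusted p of at most 0.104 and 0.11). At this stage, the phloem markers summed to 1295, 6046 and 1123 in female and 668 to 1349 in male nectaries, and the green tissue markers to 5691, 2853 and 16736 in female and 7561 to 8735 in male nectaries. Their part in these differences was not tested.

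**Figure D4:**
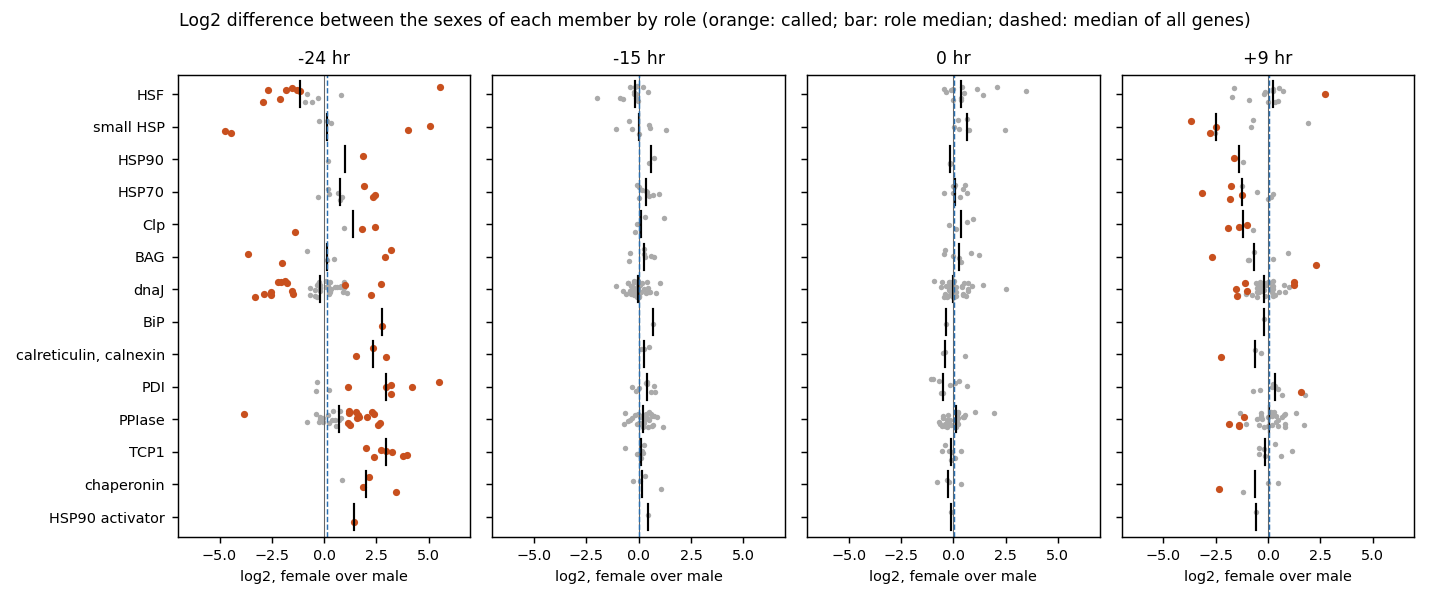
Log2 difference of female over male nectaries on the scale of value + 1 for each member (points) by role, at −24, −15, 0 and +9 hr from anthesis, with members called in orange, the role median as a bar and the median of all genes as a dashed line. At −24 hr all 7 TCP1 subunits lie above 0, at −15 and 0 hr 0 members are called, and at +9 hr 22 members are called lower in female nectaries.

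The change of a step was set against that of the other sex as an interaction. For −15 against −24 hr, 44 members differed between the sexes in their change (14 with the larger value in female and 30 in male nectaries), against 28% of all genes (12.3% and 15.7%). All 7 TCP1 subunits were among them (median difference −2.86). For 0 against −15 hr, 0 members differed, against 0.0113% of all genes, with 10 at an unadjusted p under 0.05. The unadjusted count, again, has no share of all genes beside it. For +9 against 0 hr, 14 differed (1 with the larger value in female and 13 in male nectaries), against 7.18% of all genes (2.57% and 4.6%).

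A list of 30 further genes was read beside the members, not all of them genes of protein folding, since it also took in copper and histone chaperones. Among others it held prefoldins, grpE and nascent polypeptide-associated proteins, endoplasmin, derlins, SGT1, mitochondrial BCS1, proteasome assembly chaperones and galactinol synthase, a target of heat shock factors in Arabidopsis. At 0 against −15 hr, 3 of the 30 were higher and 15 lower in female (20.5% and 31.1% of all genes) and 3 and 15 in male nectaries (17.5% and 29.7%), with 3 and 14 in both. For +9 against 0 hr, 13 were higher and 3 lower in female (32% and 17.3% of all genes) and 11 and 3 in male nectaries (31.4% and 17.6%). Prefoldin subunit 4 (XM_008457883.1), which hands actin and tubulin to TCP1, averaged 53.3 at 0 hr and 1122 at −15 hr in female nectaries, and 60.3 and 731.7 in male nectaries. Its change was −4.44 (adjusted p = 2.2e-07) in female and −3.70 (adjusted p = 4.3e-07) in male nectaries. Of the 4 other prefoldin subunits on the list, subunits 1, 2 and 6 were lower in both sexes and subunit 3 was not called in either. Endoplasmin (XM_008446599.1), the HSP90 of the endoplasmic reticulum, was lower at 0 than at −15 hr by 2.92 in female (adjusted p = 0.00389) and 2.04 in male nectaries (adjusted p = 0.0192). The HSP70-HSP90 organizing protein 3-like gene (XM_008450673.1) did not pass in that step in either sex (adjusted p of 0.912 and 0.751).

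The members had a median coefficient of variation over the 23 libraries of 70.4%, beside 65.9% over all genes. The highest stage mean of the 138 fell at −24 hr for 60 in female nectaries, at −15 hr for 24, at 0 hr for 32 and at +9 hr for 22, and in the same order for 24, 33, 34 and 47 in male nectaries. In 16 members, 0 of the 14 comparisons of stages and sexes gave a call. This count has no share of all genes beside it, so it does not set the members apart. Besides the steady dnaJ genes and factor A-8, they held HSP70 16, BAG regulator 4 and 3 peptidyl-prolyl isomerases.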

How the data were processed

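RNA of 23 nectary samples was sequenced. According to the study's methods, the authors assembled reads with Trinity, matched contigs to melon genes with blastn (E-value cutoff of 1e-05) and normalized counts to the upper quartile. The deposited values are these normalized reads, rounded to whole numbers, and are treated as a score and not as counts, so the depth in reads is unknown and no count test was run on them. No value says how contigs were summed to genes, and melon entries that resemble each other may share reads.

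Values were taken as log2(value + 1) with no filter on low values and fitted with limma 3.58.1 in R 4.3.3 (8 group means, mean-variance trend, 15 residual and 4.57 prior degrees of freedom) over all 23 libraries and 8861 genes, with Benjamini-Hochberg adjustment within each comparison. Fold changes of low genes are understated on this scale. Called were changes of 2-fold or more whose adjusted p was under 0.05. The fit was tested on simulated data. Tables and figures used python 3.11.15, pandas 2.3.3 and matplotlib 3.10.9.

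Named were all heat shock factors, small heat shock proteins, HSP90, ClpB, BAG, calreticulin, calnexin and luminal-binding genes, the 4 largest called changes each way per step, the 2 largest sex differences each way per stage, the 3 largest interactions per step, and the 3 lowest and 3 highest coefficients of variation, leaving out of the last 4 rules genes whose highest group mean was under 50. Exceptions are stated. Members and lists were chosen with earlier results of these data known. Alternatives were a pseudocount of 10, a filter of 50 in 3 libraries, median-ratio scaling, equal totals, a replicate block, one sex in the fit, no trend, and leaving out each library. The authors' own means, SDs, ratios and p-values of comparisons were not used.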

Additional observations from a re-analysis of the deposited data

Results flagged for a closer look

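The change in a step differed between the sexes by limma's interaction test for 44 of the 138 members at −15 against −24 hr, where 28% of all genes differed. At +9 against 0 hr it differed for 14 members, against 7.18% of all genes. The named members with the largest differences follow, each as the female change minus the male change on the log2 scale of value + 1.

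At −15 against −24 hr, factor A-2d-like (XM_008451146.1) differed by −5.62 (SE 1.13, adjusted p = 0.00108), and protein disulfide isomerase-like 1-4 (XM_008467072.1) by −5.09 (SE 1.18, adjusted p = 0.00335). The isomerase had 281, 271 and 168 at −24 hr and 42 and 11 at −15 hr in female nectaries, and 9, 6 and 1 and then 8, 30 and 17 in male nectaries. Its female −24 hr libraries were thus above all others, in the stage where the female nectary markers were low, whose part in the difference was not tested. The 17.8 kDa protein (XM_008443199.1) differed by −5.06 (SE 1.29, adjusted p = 0.00626), a size that depends on the 1 added before the log. Differences also ran the other way. The 15.4 kDa protein (XM_008442954.1) differed by 4.97 (SE 0.67, adjusted p = 4.1e-05) and BAG regulator 6 (XM_008459935.1) by 4.26 (SE 0.72, adjusted p = 2.6e-04).

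At +9 against 0 hr, A-6b (XM_008440394.1) differed by −5.11 (SE 1.18, adjusted p = 0.0147), the 18.1 kDa protein XM_008450453.1 by −4.46 (SE 1.33, adjusted p = 0.0462) and FKBP17-2 (XM_008465878.1) by −3.8 (SE 0.89, adjusted p = 0.0158). The call of the 18.1 kDa protein was lost with the replicate block, with no trend and without several single libraries (adjusted p of at most 0.126), while that of A-6b passed under each alternative run.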

How the results depend on the processing

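The 315 calls of named members were refitted under 3994 alternative values, of which 3758 kept call and direction, 236 lost the call and 0 turned round. 235 calls passed under every alternative, 70 were lost without at least 1 library, and a pseudocount of 10 moved 37 by over 1.5 times.

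With equal totals per library, counts of members were 11 higher and 54 lower for female −15 against −24 hr, 48 higher and 24 lower for female +9 against 0 hr, 24 lower for female +9 against −15 hr and 12 lower for male +9 against 0 hr. Under that scaling the median of all genes at +9 against 0 hr was 0.977 in female and 0.838 in male nectaries, against 0.336 and 0.29 as deposited and 0.073 and 0.064 with median-ratio scaling. Median-ratio scaling gave 43 higher for male 0 against −24 hr and 1 higher in female than in male nectaries at 0 hr, where a pseudocount of 10 gave 2. With one sex in the fit, 2 were higher for male −15 against −24 hr.

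Leaving out single libraries gave 1 to 2 higher and 1 to 3 lower for male −15 against −24 hr. Between female and male nectaries it gave 0 to 5 higher at 0 hr (5 without female 0 hr replicate 1) and, at +9 hr, 1 to 9 higher (9 without replicate 1 of either sex, 1 without female replicate 3 or male replicate 2) and 5 to 27 lower (5 without female replicate 3). The interaction counts ranged over 0 to 1 for 0 against −15 hr and 7 to 30 for +9 against 0 hr (30 without female +9 hr replicate 1, 7 without female 0 hr replicate 3 or male 0 hr replicate 2).

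Replicate numbers were not used to pair the samples in the fit. No comparison had all correlations of same-numbered deviations over 0.1, but with 2 or 3 libraries in a group this check cannot exclude pairing. With the replicate block, the interaction counts were 42 for −15 against −24 hr and 12 for +9 against 0 hr. Groups of 2 or 3 libraries and values without a depth in reads limit the precision throughout.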
